A study of Mus musculus with 4 samples.

Results

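The core circadian clock was described through 10 genes, Arntl, Clock, Cry1, Cry2, Per1, Per2, Per3, Nr1d1, Nr1d2 and Dbp, among the 34682 gene rows counted in mouse ovaries of the embryonic stage E13.5. The set was chosen by the low level of Cry1 in mutant against wild-type ovaries, and the other genes were taken by name for their place in the clock. The comparison of mutant with wild-type ovaries is therefore given for these genes as a description, and nothing is read from its tests. All 10 genes passed the filter on low counts, as did 15442 genes in all.

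RNA was sequenced from 2 libraries of Sall1-overexpressing mutant ovaries and 2 libraries of wild-type ovaries, numbered 1 and 2 in each group. In the mutants a BAC, a large genomic insert cloned in bacteria, carried the Sall1 coding sequence under the promoter and regulatory elements of Wt1, a gene of gonadal somatic cells. It was integrated into female embryonic stem cells, from which transgenic mice were made by morula aggregation. For the cells of the transgenic experiments the methods name a B6 or B6 hybrid background. In the section on transfection the female line is described as derived from B6 blastocysts. Whether the embryos sequenced came directly from aggregation or from later breeding is not stated. The libraries held RNA of whole ovaries, in which germ cells, which are not somatic, are also present. The wild-type count columns carry the label B6, the methods name CD1 for RNA-seq gonads, and the controls are also called littermates, so the strain of the controls is uncertain. Neither the hour of dissection nor the number of embryos behind each library is given in the sources used here, and p-values measure only the spread between these libraries. Whole-tissue RNA does not tell fewer cells of a type apart from less RNA per cell.

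The clock is a feedback loop of transcription. CLOCK and BMAL1, the product of Arntl, bind E-boxes and drive the Per and Cry genes, Nr1d1, Nr1d2 and Dbp. PER and CRY proteins then repress CLOCK and BMAL1, while the REV-ERB receptors encoded by Nr1d1 and Nr1d2 repress Arntl, Npas2, Nfil3 and Cry1 through ROR response elements. In rhythmic adult tissues Arntl therefore runs opposite to Nr1d1 and Dbp, the Per genes follow Dbp, and Cry1 peaks later than the Per genes. In mouse embryos the clocks of most tissues mature late in gestation.

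The promoters of these genes were read for the elements through which the loop acts, because a shift of the loop could be seen in genes that share an element. RefSeq windows from 250 bases before to 50 after each transcription start (GRCm38.p6) were found for 9 of the genes, all except Per2. Both strands were searched for the E-box CACGTG, the related sequence CACGTT, the D-box as TTATGTAA or TTACGTAA, the cyclic AMP response element TGACGTCA and the ROR response element. None of these overlapped another in the stretches printed here. CACGTG was found for Cry1 and Per1 and lies in 7.15% of all 32841 windows. CACGTT was found for Cry1, Cry2 and Nr1d1, against 4.69% of all windows, and TTATGTAA at 2 places for Per3, against 0.938%. The ROR response element was found for Arntl in 1 of its windows, against 0.384% of all windows. TTACGTAA and TGACGTCA were found for 0 of the 9 genes, against 0.119% and 1.79% of all windows. The genes were counted once each, although Arntl, Clock and Per1 had more than 1 window, while the shares are per window. Sequence outside the windows was not searched, so an element not found here may lie elsewhere in the gene. The following stretches of 60 bases before the start are shown because they hold the elements of the genes that differed most here, Cry1, Per1 and Per3, beside those of Cry2 and Nr1d1, with the elements in capitals and CACGTT written as its reverse, AACGTG.
Cry1 promoter, chr10:85185085-85185144, minus strand: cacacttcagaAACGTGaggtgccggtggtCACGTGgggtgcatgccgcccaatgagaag
Per1 promoter, chr11:69098753-69098812, plus strand: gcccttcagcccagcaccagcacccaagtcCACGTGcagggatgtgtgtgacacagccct
Cry2 promoter, chr2:92434206-92434265, minus strand: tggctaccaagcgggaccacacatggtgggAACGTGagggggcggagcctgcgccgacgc
Nr1d1 promoter, chr11:98775378-98775437, minus strand: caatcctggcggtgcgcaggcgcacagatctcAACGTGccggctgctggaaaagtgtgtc
Per3 promoter, chr4:151044794-151044853, minus strand: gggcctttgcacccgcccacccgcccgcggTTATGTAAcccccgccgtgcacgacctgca
Cry1 holds both kinds of E-box within 60 bases, Per1 and the other genes 1 element each in the stretch shown. A match of letters is not a measured binding site.

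Total counts lay between 11036313 and 17869840 per library. A count of 3, the smallest taken as distinct from absence, corresponded to between 0.170 and 0.272 CPM, the count relative to the TMM-scaled library total. Sall1, the overexpressed gene, had 113 and 96.0 CPM in the mutant libraries against 16.2 and 12.6 CPM in the wild type, so the libraries followed their labels. Supporting cell genes (Foxl2, Wt1 and 8 others) and germ cell genes (Dazl, Ddx4 and 6 others) were present in all 4 libraries, with summed levels of 1454 to 1655 CPM and 1657 to 1890 CPM. Skeletal muscle genes summed to 231 CPM in wild-type replicate 1 and to between 37.5 and 66.8 CPM in the other libraries.

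Clock transcripts were present at very unequal levels. Per kilobase of annotated exon (GENCODE M1 on NCBIM37, the build called mm9 in the submitters' processing notes), Cry1 was the highest of the 10 genes in all 4 libraries, with 27.2 ± 3.56 CPM per kb (SD, n = 2) in wild-type and 16.7 ± 0.658 CPM per kb (SD, n = 2) in mutant ovaries. Nr1d2, which encodes REV-ERB beta, came next with 15.7 ± 1.09 and 16.2 ± 1.21 CPM per kb (SD, n = 2 each), and its range overlapped that of Cry1. Clock followed with 8.77 ± 1.30 and 8.93 ± 0.673 CPM per kb and overlapped neither neighbour.
Per1, Cry2, Arntl and Per3 formed a middle group, whose means over the 4 libraries lay between 3.90 and 4.92 CPM per kb. Within it the ranges over the 4 libraries overlapped for every pair of genes except Cry2 and Arntl. Nr1d1, at 1.68 CPM per kb over the 4 libraries, lay apart from both neighbours, and Dbp and Per2 were lowest and overlapped each other at 1.27 and 1.18 CPM per kb. The genes that in adult tissues swing most, Dbp and Nr1d1, were thus near the bottom of the order, and their values rest on 46 to 61 and 56 to 100 counts per library. The lengths may differ from those of the authors' annotation.

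**Figure D1:**
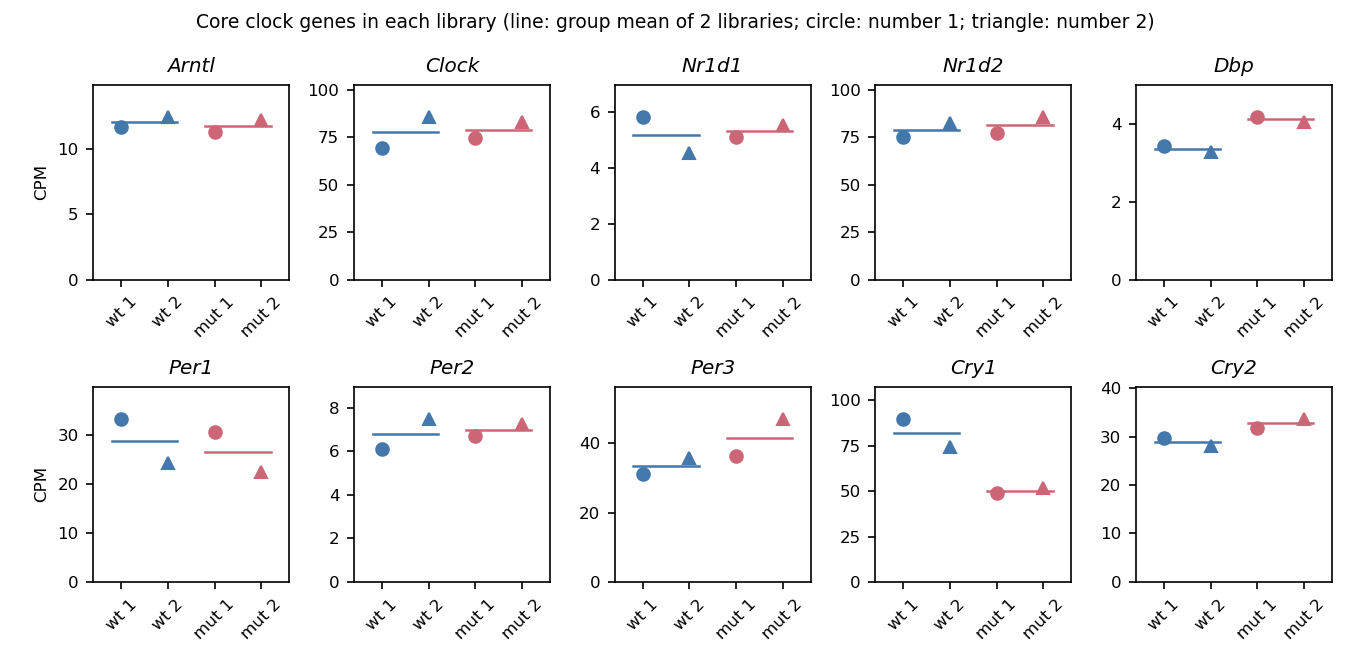
CPM (y axis, from 0, own scale per gene) of each core clock gene in the 4 libraries (x axis); circles are number 1, triangles number 2, and lines are group means of 2 libraries. Cry1 lies at 48.9 and 51.7 CPM in the mutants, below 74.3 and 89.5 CPM in the wild type, while Per1 is lower in both libraries numbered 2.

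Cry1 encodes a cryptochrome, a repressor of CLOCK and BMAL1. Its gene spans positions 84594447 to 84647799 of chromosome 10 (NCBIM37, minus strand). Its counts were 539 and 778 for the mutants against 1540 and 1312 for the wild type, or 48.9 and 51.7 CPM against 89.5 and 74.3 CPM. Both mutant libraries lay below both wild-type libraries, and the mutant mean was 61.4% of the wild-type mean. The log2 fold change was -0.70 (standard error 0.13). The difference was -0.87 between the libraries numbered 1 and -0.52 between those numbered 2, on the log2 CPM scale. Wild-type replicate 1, the library with the high muscle genes, was also the one with the highest Cry1, and without it the log2 fold change was -0.56.

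Cry2, the other cryptochrome, did not share this pattern. It had 31.8 and 33.6 CPM in the mutants and 29.8 and 28.0 CPM in the wild type, so the mutants were slightly higher without overlap, at 0.18 on the log2 scale (standard error 0.12). The log2 ratio of Cry1 to Cry2 was 0.62 in both mutants, with 1.59 and 1.41 for the wild type. A noncoding gene on the opposite strand, D930015M05Rik, shares 295 exon bases with Cry2 and had 1 to 14 counts.

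The activators Arntl and Clock overlapped between the groups. Arntl, which encodes BMAL1, had 11.3 and 12.2 CPM in the mutants and 11.6 and 12.4 CPM in the wild type, with a log2 fold change of -0.036 (95% interval -0.44 to 0.36). Clock, which encodes the partner of BMAL1, had 74.7 and 83.1 CPM against 69.3 and 85.6 CPM, with a log2 fold change of 0.027 (95% interval -0.29 to 0.34). Neither interval excludes a difference as large as the 0.18 of Cry2. Npas2, a paralog of Clock, had 1.63 and 1.99 CPM in the mutants and 2.91 and 2.95 CPM in the wild type, from 18 to 52 counts. The difference of -0.68 on the log2 scale (standard error 0.33) had an adjusted p of 0.989 in edgeR's test.

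The REV-ERB receptors, which repress Arntl and Cry1, also overlapped. Nr1d1 had 5.08 and 5.52 CPM in the mutants and 5.81 and 4.53 CPM in the wild type, with a log2 fold change of 0.037 (95% interval -0.59 to 0.66). Nr1d2 had 77.0 and 85.6 CPM against 74.9 and 82.7 CPM, with a log2 fold change of 0.046 (95% interval -0.21 to 0.31). The interval of Nr1d2 is the narrowest of the 10 genes and that of Nr1d1 is among the widest. Nr1d1 shares 263 exon bases with Thra on the opposite strand, which had 787 to 1514 counts, and since the handling of strands is not stated the low counts of Nr1d1 are uncertain.

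Dbp, an activator at D-boxes and a direct output of CLOCK and BMAL1, had 4.17 and 4.05 CPM in the mutants and 3.43 and 3.29 CPM in the wild type. The groups did not overlap, at 0.29 on the log2 scale (standard error 0.28) and a 95% interval from -0.37 to 0.96. Dbp shares 491 exon bases with Sphk2 on the opposite strand, which had 543 to 786 counts, so its counts are uncertain too. Tef, a relative of Dbp with the same target sequence, had 79.8 and 87.9 CPM against 80.2 and 82.4 CPM. Hlf, the third relative, had 5.35 and 5.38 CPM against 5.06 and 3.29 CPM.

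The 3 Per genes, which encode the partners of CRY in repression, gave 3 patterns. Per1 had 30.7 and 22.5 CPM in the mutants and 33.3 and 24.3 CPM in the wild type, overlapping between groups, at -0.12 on the log2 scale (standard error 0.21). Per2 had 6.71 and 7.24 CPM against 6.10 and 7.48 CPM, also overlapping, at 0.041 on the log2 scale (standard error 0.23). Per3 had 36.3 and 47.0 CPM against 31.1 and 35.7 CPM, without overlap, at 0.32 on the log2 scale (standard error 0.16), the largest positive value of the 10 genes. Without mutant replicate 2 this value was 0.12.

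**Figure D2:**
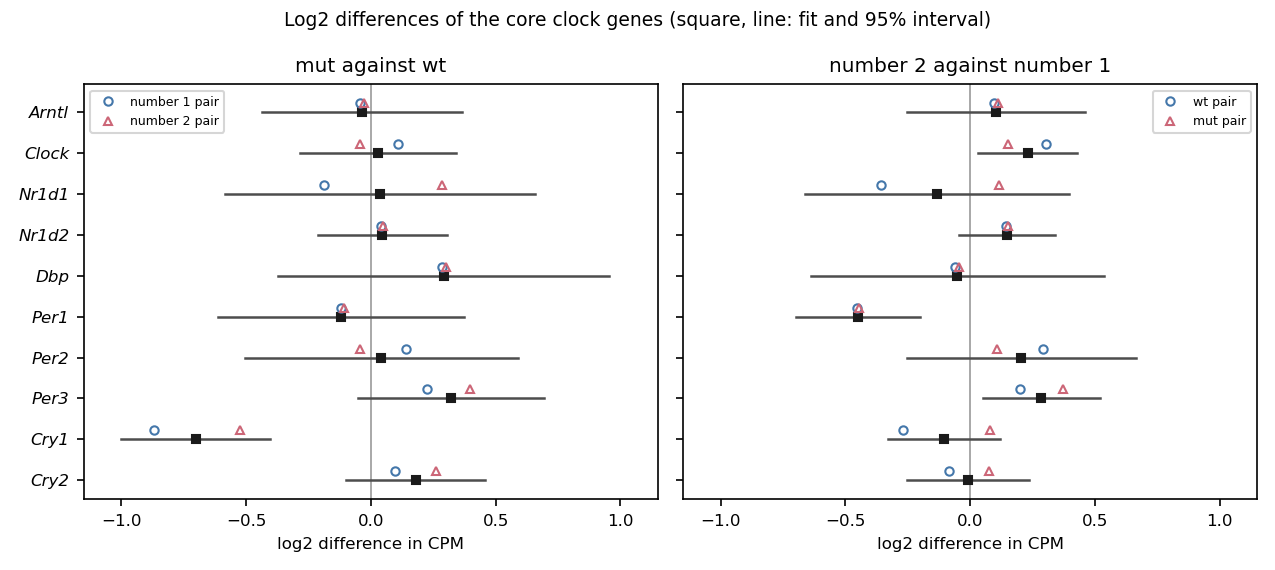
Log2 differences in CPM (x axis) of the 10 genes (y axis), between mut and wt (left) and between number 2 and number 1 (right); squares and lines are the fit and its 95% interval, open symbols the single pairs of libraries. On the left Cry1 stands at -0.70 and the other 9 genes between -0.12 and 0.32, and on the right Per1 stands at -0.45.

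For the 10 genes together, the median log2 fold change between mutant and wild-type ovaries was 0.039, against -0.00088 for all genes tested. An adjusted p under 0.05 in edgeR's test was reached by 0 of them, where 0.0583% of all genes tested were called. At an unadjusted p under 0.05 it was 1, Cry1, where 5.69% of all genes tested passed. DESeq2 also called 1, Cry1, where it called 0.694% of the genes to which it gave an adjusted p. With the replicate number added to the fit 1 gene was called too, Cry1, where 2.49% of all genes tested were called. Groups did not overlap in 4 genes, Cry1 lower and Cry2, Per3 and Dbp higher in the mutants, where 30.9% of all genes tested did not overlap, 15.1% lower and 15.8% higher. Nothing is read from these counts, because this comparison led to the choice of Cry1.

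The values were then set out in the order in which the loop would carry a difference in phase. In a rhythmic tissue such a difference could place Arntl opposite to Nr1d1 and Dbp. Its size and sign in each gene depend on the hour of dissection, which is not known. The signs below therefore cannot decide on phase. Of the 10 genes, 7 had the same sign in the pairs numbered 1 and 2, of which 4 were higher and 3 lower in the mutants, where 53.8% of all genes tested had the same sign in both.
Among the activators Arntl, Clock and Npas2, 2 were lower in both pairs and 1 changed sign. Among the tested outputs Nr1d1, Nr1d2, Dbp, Per1, Per2, Per3, Tef and Hlf, 4 were higher in both pairs, 1 was lower in both and 3 changed sign, with a median log2 fold change of 0.045. Among the genes with known ROR response elements, Arntl, Npas2 and Cry1 were lower in both pairs and Nfil3 was higher in both. Arntl itself differed by only -0.045 and -0.028 in these pairs.
The log2 ratio of Arntl to Nr1d1 was 1.14 in both mutants, with 1.00 and 1.45 for the wild type, so the mutants lay inside the wild-type range. The log2 ratio of Arntl to Dbp was 1.42 and 1.58 in the mutants and 1.75 and 1.91 in the wild type, lower in both pairs by 0.33, a difference that rests mainly on the counts of Dbp. The low level of Cry1 thus stood beside log2 fold changes of Arntl, Clock, Nr1d1, Nr1d2 and Per2 between -0.036 and 0.046. Those of Per1 and Cry2 were -0.12 (standard error 0.21) and 0.18 (standard error 0.12). Those of Dbp and Per3 were 0.29 (standard error 0.28) and 0.32 (standard error 0.16). With 4 libraries at unknown hours, a difference of phase cannot be told apart from other differences in level.

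The libraries were also compared by replicate number, which played no part in the choice of the genes. The labels do not say what a shared number marks. Per1 was lower in both libraries numbered 2, at 22.5 CPM in the mutant and 24.3 CPM in the wild type, than in those numbered 1, at 30.7 and 33.3 CPM. The difference was -0.44 in the mutants and -0.45 in the wild type on the log2 CPM scale. In a fit with genotype and number, number 2 against number 1 gave a log2 fold change of -0.45 (standard error 0.12), with a Benjamini-Hochberg adjusted p of 0.0427 by the quasi-likelihood test of edgeR. This call lies close to the threshold and was lost with RLE scaling (adjusted p = 0.0604), with upper-quartile scaling (adjusted p = 0.0510), without the filter (adjusted p = 0.0772) and with DESeq2 (adjusted p = 0.940).

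Per1 was the 1 gene of the 10 that passed in this comparison, in which 4.29% of all genes tested were called, 2.73% as lower in number 2. The sign was the same in both genotypes for 7 of the 10 genes, against 62.2% of all genes tested. Clock was higher in number 2 by 0.23 on the log2 scale (standard error 0.093, adjusted p = 0.203), and so was Per3, with 0.28 (standard error 0.11, adjusted p = 0.183), but neither passed in edgeR's test. Arntl (0.10), Nr1d2 (0.15) and Per2 (0.21) were positive and Nr1d1 (-0.13), Dbp (-0.052), Cry1 (-0.11) and Cry2 (-0.0067) negative on the log2 scale, each with an adjusted p of at least 0.432 in the same test.
For Cry1 the 95% interval of the difference by number ran from -0.33 to 0.12. Numbers 1 and 2 did not overlap in 5 of the 10 genes, where 45.4% of all genes tested did not overlap. The log2 ratio of Per3 to Per1 was higher in number 2 by 0.82 in the mutants and 0.65 in the wild type, whereas that of Arntl to Nr1d1 moved by -0.0039 and 0.45.
Marker genes of several cell types also differed by number. By edgeR's test all 4 tested erythroid genes were called lower in number 2, with sums of 868 against 3172 CPM in the mutants and 1669 against 3474 CPM in the wild type, while Hba-a2, Hbb-b1 and Hbb-b2 were listed at 0. Of 6 skeletal muscle genes, 5 were called lower in number 2, where 2.73% of all genes tested were called lower. Also called lower were 2 of 10 supporting cell genes, Gata4 (-0.38) and Runx1 (-0.40), and 1 of 4 interstitial cell genes, Nr2f2 (-0.44). Of 8 germ cell genes, 1 was called higher, Stra8 (0.47), where 4.29% of all genes tested were called in either direction. The part of these cell types in the difference of Per1 was not tested.

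The other genes of the clock were taken from lists written from general knowledge, with 66 of 71 genes tested. Between mutant and wild-type ovaries 0 of the 66 passed in edgeR's test, against 0.0583% of all genes called, and 0 with DESeq2. An unadjusted p under 0.05 was reached by 1 of the 66, against 5.69% of all genes tested. It was Pdk4, a kinase of glucose oxidation, named after its values were seen. Their median log2 fold change was -0.016. Between the numbers 1 of the 66 passed, against 4.29% of all genes tested.
This gene was Nfil3, a repressor that competes with DBP at D-boxes. It had 25.1 CPM in the mutant and 22.8 CPM in the wild-type library numbered 1, against 17.4 and 15.9 CPM in those numbered 2. By number it differed by -0.53 on the log2 scale (standard error 0.13), and edgeR gave it an adjusted p of 0.0370. The call was lost with RLE scaling (adjusted p = 0.0538), without the filter (adjusted p = 0.0627) and with DESeq2 (adjusted p = 0.901).

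The kinases, ubiquitin ligases and proteases that set the life of PER and CRY proteins had the following values. All 13 were tested, among them Csnk1d and Csnk1e, which phosphorylate PER. Their log2 fold changes between mutant and wild type lay between -0.080 and 0.14, with the largest for Prkaa2, a subunit of AMP kinase. The chromatin and RNA cofactors lay between -0.078 and 0.11, the largest being Ep300, an acetyltransferase that works with CLOCK.
Among the other repressors, Bhlhe40, which competes for E-boxes, had the largest value at -0.36 (standard error 0.24). Rora, the tested activator at ROR response elements, had -0.066 (standard error 0.18), while Rorb was below the filter. Ciart, Cipc and Kmt2a are each listed under more than one symbol, and each row had 0 to 2 counts per library, so no level was read for them.
Of the genes through which signals reach the clock, the CREB and serum-responsive list had a median of -0.12 between mutant and wild type, with Junb at -0.38 (standard error 0.63). By number its median was -0.23, against -0.0077 for all genes, and 5 of its 9 tested genes were lower in both libraries numbered 2 without overlap, against 23.5% of all genes tested. By edgeR and by DESeq2 0 were called, and 3 had an unadjusted p under 0.05 in edgeR, against 17.4% of all genes tested. The list of clock-controlled outputs had a median by number of -0.16. Of its 9 tested genes, 4 were lower and 3 higher in number 2 without overlap, against 45.4% of all genes tested in either direction. In that list 3 had an unadjusted p under 0.05 in edgeR, Klf10 (-0.26) and Klf11 (-0.30) lower and Pparg (0.97) higher in number 2. Per1 is a known target of CREB, but a link to its difference by number was not tested. The glucocorticoid-responsive list had medians of 0.051 and 0.072 and the temperature-responsive list -0.083 and 0.11 in these 2 comparisons, with the largest values between mutant and wild type for Zbtb16, at 0.71 (standard error 0.46), and Hspa1b, at -0.53 (standard error 0.39). Each rested on 1 library. Zbtb16 had 3.08 CPM in mutant replicate 1 and 1.10 to 1.76 CPM in the other libraries, and Hspa1b had 6.63 CPM in wild-type replicate 2 and 3.25 to 3.59 CPM in the others.
Among the clock-controlled outputs, Pparg had the largest value between mutant and wild type, 0.57 (standard error 0.55). It rested on mutant replicate 2, with 10.6 CPM against 2.72 to 4.70 CPM in the other libraries. Wee1, a cell cycle kinase driven through E-boxes, and Nampt, an enzyme of NAD synthesis, had -0.031 and -0.097.

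**Figure D3:**
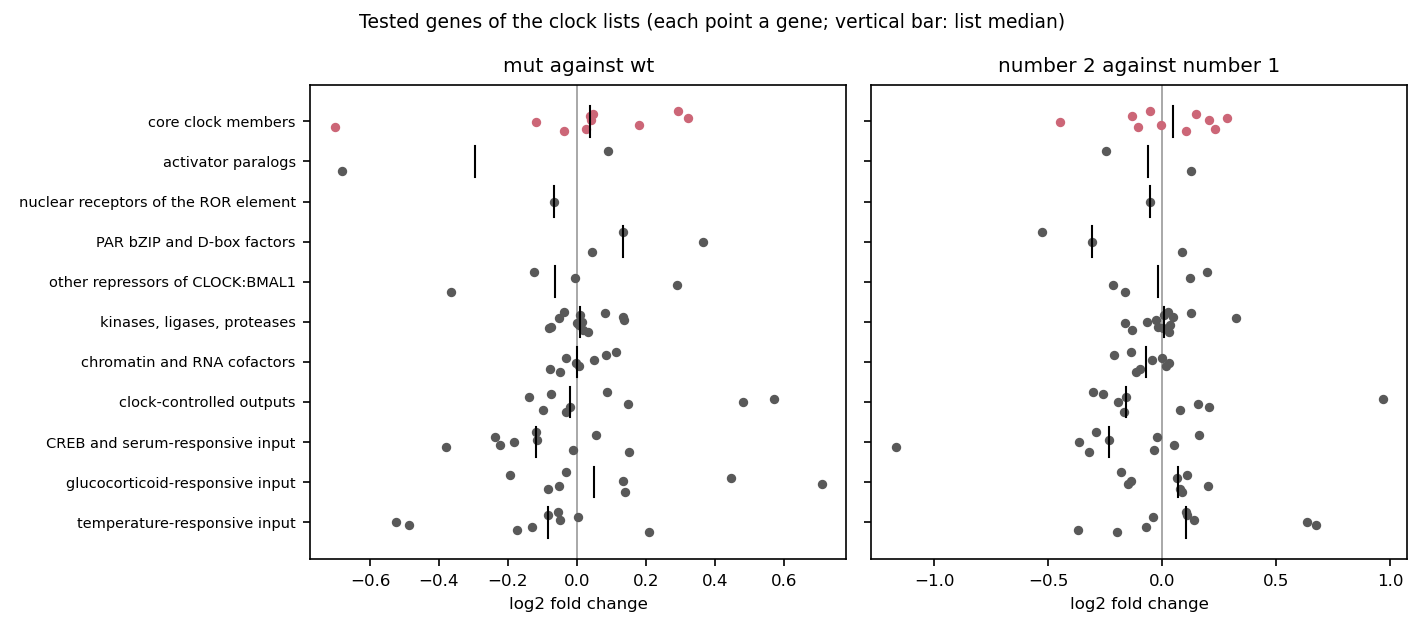
Log2 fold changes (x axis) of the tested genes in the core and wider clock lists (y axis), mut against wt (left) and number 2 against number 1 (right); each point is a gene and each bar a list median. On the left most lists lie around 0, with Cry1 at -0.70 and Npas2 at -0.68 to the left. On the right Per1 and Nfil3, the genes called by edgeR, lie at -0.45 and -0.53. Junb at -1.17 and Pparg at 0.97 lie farther from 0 and were not called.

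Markers of other cells were read beside Cry1. The 4 interstitial genes, Pdgfra, Nr2f2, Tcf21 and Maf, were all lower in both mutant libraries than in both wild-type libraries, where 15.1% of all genes tested were lower without overlap. Their summed level was 311 and 249 CPM in the mutants and 427 and 388 CPM in the wild type, and their median log2 fold change was -0.51. Tcf21, a transcription factor of mesenchyme, had the largest value at -1.10 (standard error 0.14), with 28.0 and 23.3 CPM against 57.7 and 51.7 CPM. Pdgfra, a growth factor receptor of the same cells, had 168 and 139 CPM against 233 and 217 CPM. By edgeR's test 0 of the 4 were called, and 2 had an unadjusted p under 0.05, against 5.69% of all genes tested. DESeq2 called 2, Pdgfra and Tcf21, against 0.694% of all genes, and edgeR with the replicate number in the fit called 3, against 2.49%.
Supporting cell genes had a median of 0.039 on the log2 scale, with single genes on either side of 0. Of the 10, 3 were higher in the mutants without overlap, Foxl2 (0.59), Irx3 (0.34) and Fst (0.14), and 1 was lower, Lhx9 (-0.56). Among all genes tested, 15.8% were higher and 15.1% lower without overlap. By edgeR's test 0 of the 10 were called, and 3 had an unadjusted p under 0.05, against 5.69% of all genes tested. DESeq2 called 1, Lhx9, against 0.694% of all genes. With the replicate number in the fit, edgeR called Foxl2 higher and Lhx9 lower, against 2.49% of all genes called in either direction. Germ cell genes had a median of -0.023 and endothelial genes of -0.0062, with Kdr (-0.46) the 1 endothelial gene lower without overlap. Of the 5 tested genes of the mesonephric duct and tubule, with a median of -0.00024, Pax8 (0.80) was higher and Ret (-0.51) lower without overlap. With the replicate number in the fit, edgeR also called Kdr lower and Pax8 higher, and 0 germ cell genes.
Erythroid genes had a median of -0.36 and skeletal muscle genes of -1.72. Each tested gene of both lists overlapped between groups, but within the pairs of the same number 3 of 4 erythroid and 4 of 6 muscle genes were lower in the mutant both times, against 27% of all genes tested. With the replicate number in the fit, edgeR called 3 erythroid and 3 muscle genes lower in the mutants, against 2.49% of all genes called in either direction. The part of these cells in the level of Cry1 was not tested.

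**Figure D4:**
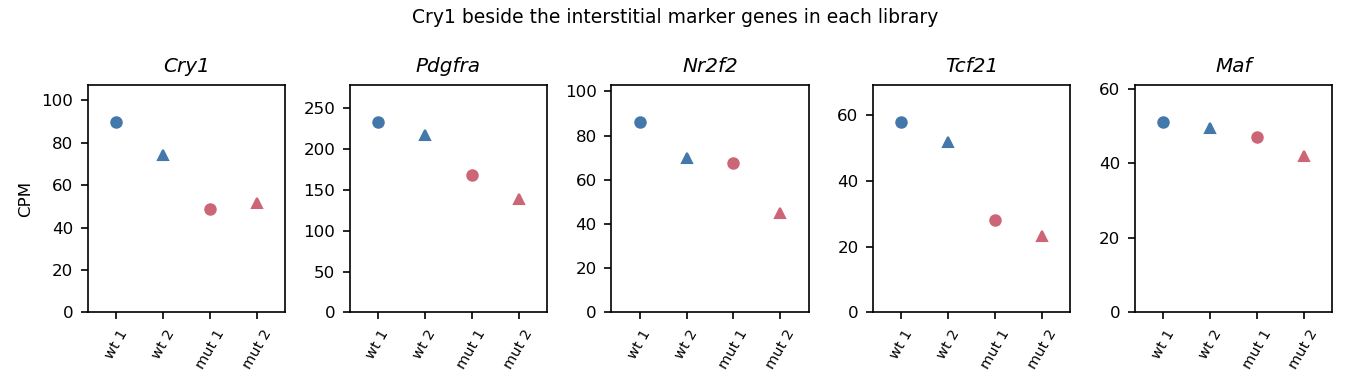
CPM (y axis, from 0, own scale per gene) of Cry1 and the 4 interstitial marker genes in the 4 libraries (x axis); circles are number 1 and triangles number 2. Cry1 and each marker gene are lower in both mutant libraries than in both wild-type libraries.

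Among all genes tested, those whose 4 values lay closest to the pattern of Cry1 were Runx3_copy2, Sphk1, Hmgcll1, Eva1a and Sh2d7, with distances of 0.053 to 0.10 between the centred log2 CPM values over 4 libraries. They had 63 to 283 counts in total, far fewer than the 4169 of Cry1. Of the clock genes, the closest to Cry1 were Per1 and Arntl, at distances of 0.70 and 0.71, and the farthest was Per3, at 1.08. The median distance of all genes tested was 0.78.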

How the data were processed

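RNA of 4 ovary libraries was analysed. Per the submitters' processing notes and methods, the authors aligned reads with STAR 2.6.1d to mm9 and counted them per gene with summarizeOverlaps. The deposited values are raw counts of 34682 gene symbols, with 0 columns unused. The annotation and strand setting are not given in the sources used here. Library totals lay between 11036313 and 17869840, which limits precision for genes of few counts; the floor of 3 counts covers counting error only.

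Counts were analysed in R 4.3.3 with edgeR 4.0.16, using filterByExpr (15442 genes), TMM scaling and quasi-likelihood F-tests, and p-values were adjusted by Benjamini and Hochberg over all genes tested, at 0.05. Mutant and wild type were compared with genotype as the only factor. Replicate number 2 was compared with 1 in a fit with genotype and number, which leaves 1 residual degree of freedom per gene. Standard errors and 95% intervals were derived from the F statistic. DESeq2 1.42.0, the authors' tool, was an alternative, beside other scalings, filters, the replicate block and each library left out. The smallest p that exact permutation of 2 against 2 libraries allows is 0.333.

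The members and lists were chosen with earlier results of these data known. Named were the 10 genes, Sall1, list genes past the threshold or, in a list without any, the gene with the largest change, genes overlapping a member, and the 5 genes nearest to Cry1; genes of the phase arms and marker lists were also set out, and other list genes were named for their function. Some genes of the lists are not reported here and were left out of their counts, sums and medians. Of the listed genes 1 was matched through an older symbol. Log2 CPM values have an offset of 0.5 counts. On simulated counts in which 200 genes were shifted by 2 on the log2 scale, the fit for genotype recovered 97.5% among 15269 genes tested and the fit for number 98.5% among 15242. Of the calls, 6.25% and 4.37% were false. These counts were drawn with the common dispersion of the fit with number, about 0.0064, where the fit without it gave 0.021. The genotype case held no effect of number. Recovery in the data may therefore be lower, and smaller shifts were not simulated.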

Additional observations from a re-analysis of the deposited data

How the results depend on the processing

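The level of Cry1 in mutant against wild-type ovaries, -0.70 on the log2 scale, lay between -0.69 and -0.71 in all fits with 4 libraries and between -0.82 and -0.56 when 1 library was omitted. The 9 genes called between the groups became 385 with the replicate block, 105 with DESeq2, 118 with DESeq2 with the replicate block, 28 with no filter, 19 with at least 10 counts in every library, and 4 to 130 with each library left out, where the lone library of a group is assumed to vary like the other group. The wider clock lists had 0 calls in this comparison under each of these settings. Libraries of the same number deviated together (correlation 0.491 across genes). The names of their count columns also carry consecutive identifiers, but what these or the number mark is not stated. The cause of the changes in the number of calls was not tested. With the replicate block Cry1 was -0.69, and nothing is read from its call in that fit, since this comparison chose it.

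Between numbers, 662 calls became 4 with no genotype term and 124 with DESeq2. The 1 call in the wider lists became 0 with RLE scaling, with no filter, with no genotype term and with DESeq2. With no genotype term the adjusted p was 0.212 for Per1 and 0.211 for Nfil3. Cry2, at -0.0067, turned to 0.00057 with no genotype term and 0.0043 with DESeq2. The fold changes of Per1 and Nfil3 by number lay between -0.45 and -0.44 and between -0.53 and -0.52 under each setting. For Clock, Nr1d1, Nr1d2, Per1, Per2, Arntl and Nfil3 the sign of the small difference between mutant and wild type changed with the library left out. Depth limits Dbp, Nr1d1, Per2 and Npas2 most.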
